A study of Homo sapiens with 6 samples.

Results

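The light strand of mitochondrial DNA gave 5302 positions at which polyadenylated RNA ended, of 2438055 such positions in the whole genome. They are all positions deposited for chrM and the minus strand from 6 libraries. The cells were HEK293, an established line derived from human embryonic kidney, and the assay was A-seq, which selects RNA with a poly(A) tail and primes reverse transcription at the start of the tail, so that a read is taken to mark a 3′ end. Whether some reads were primed at A-rich stretches inside an RNA was not tested, so an end below is a position counted as such by the authors. Of the 5302 positions, 60 lie between 201 and 260 and 84 lie between 14000 and 14700, where ND6 is encoded. Positions 201 to 260 are only a part of the control region of mitochondrial DNA. They were counted apart, and the term control region names these positions alone below.

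Alkaline hydrolysis fragmented the RNA of 4 libraries. These came from cells given no siRNA, the scrambled-A siRNA (called scrambled below), Ambion S224836 against CF Im25, or Ambion S21772 against CF Im59. RNase I fragmented the RNA of the other 2, which came from cells given scrambled-A siRNA or a Dharmacon oligo against CF Im68. Cells with siRNA were harvested after 3 days, and the proteins targeted are subunits of cleavage factor Im, a nuclear factor of mRNA 3′ end formation. The series compared each knockdown with control cells to follow 3′ end use, and the levels of the targeted mRNAs were not analysed here. Each group had 1 library, so no difference could be set against a spread between replicates, and intervals cover the counting error of reads only.

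Mitochondrial DNA is a small circle whose strands are both transcribed as long RNAs. The heavy-strand transcript carries the ribosomal RNAs and nearly all mRNAs, and the poly(A) tails of those mRNAs are added by a mitochondrial poly(A) polymerase. Transcription from the light-strand promoter gives a short polyadenylated RNA, called 7S RNA, that ends inside the wider control region. It also gives a long transcript with the mRNA of ND6, a subunit of respiratory complex I, and a set of tRNAs. Most of the long light-strand transcript is antisense to heavy-strand genes and is normally degraded by the helicase SUPV3L1 with the nuclease PNPT1, and ND6 mRNA is known for lacking a long poly(A) tail. Transcription of this strand runs towards lower positions, so 372 lies nearer to the promoter than 230, and 198, 122 and 90 lie beyond 230.

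Library totals ranged from 5351980 to 18183644 reads. Light-strand reads were 57806 to 169112 in the alkaline libraries, which is 0.542% to 1.33% of each library. They were 210133 (3.93%) with scrambled siRNA and 1055294 (8.12%) after CF Im68 siRNA in the RNase I libraries. Heavy-strand reads were 0.532% to 0.736% of the alkaline libraries and 0.233% and 0.255% of the RNase I libraries. Light-strand reads therefore numbered 1.02 to 2.28 per heavy-strand read after alkaline hydrolysis, and 16.9 and 31.8 after RNase I. Fragmentation is fixed within each comparison of siRNAs below, but the knockdown of CF Im68 was sequenced with RNase I alone and those of CF Im25 and CF Im59 with alkaline hydrolysis alone. Fewer mitochondria, less RNA per mitochondrion and fewer tailed molecules cannot be told apart in these totals.

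The library with scrambled siRNA and alkaline hydrolysis stood apart on the long light-strand transcript. Ends above position 500, called the body below, were at 3061 CPM there (reads scaled to a library of 1000000), against 1216 without siRNA, 933 after CF Im25 siRNA and 1487 after CF Im59 siRNA. The 3 other alkaline libraries thus all lay below this control. The body held 2690.4 CPM with scrambled siRNA and 9354 CPM after CF Im68 siRNA in the RNase I libraries. Levels and calls of the alkaline knockdowns are therefore given against no siRNA as well.

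**Figure D1:**
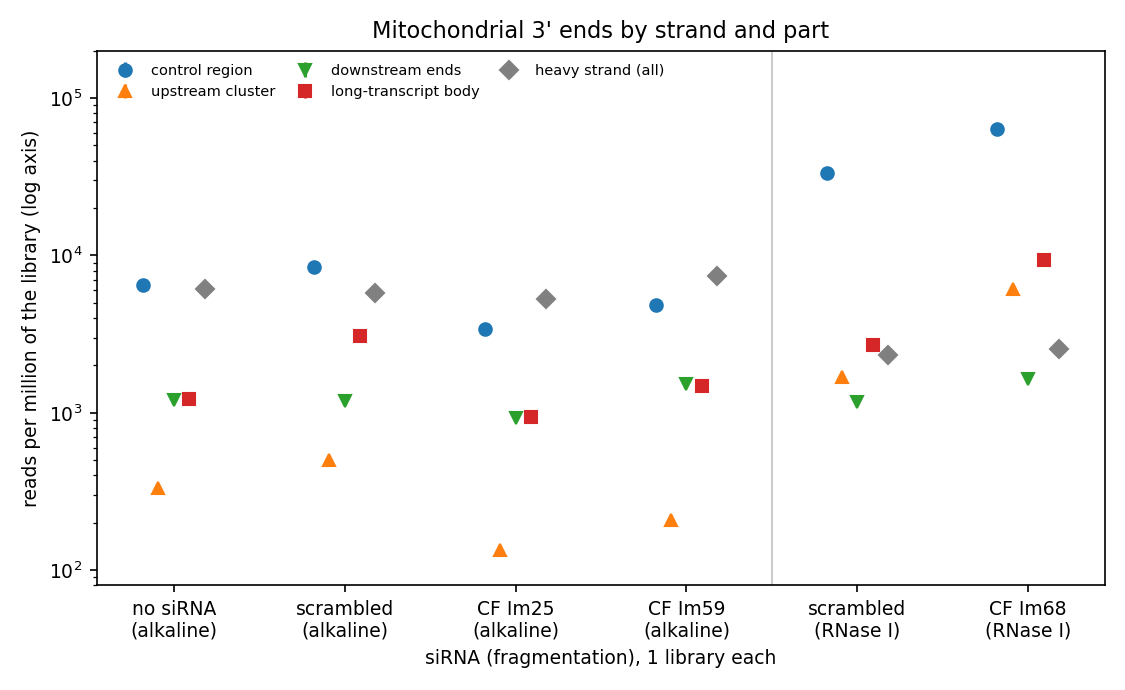
CPM (log axis) for the parts of the light strand and for the whole heavy strand, in the 6 libraries, with exact 95% intervals smaller than the symbols. The control region is at 33566 and 63573 CPM in the RNase I libraries and at 3401 to 8404 CPM in the alkaline ones, and the body is highest with CF Im68 siRNA.

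The control region held most light-strand ends in every library. Positions 201 to 260 held 69.3% of light-strand reads without siRNA, 63.4% with scrambled siRNA, 62.7% after CF Im25 siRNA and 59.9% after CF Im59 siRNA, all with alkaline hydrolysis. After RNase I they held 85.5% with scrambled siRNA and 78.3% after CF Im68 siRNA. Both RNase I values lay above all 4 alkaline values. A cluster above 300 and up to 400, on the promoter side, held 2.49% to 7.57%, and ends at 1 to 200, beyond the control region, held 2.02% to 18.7%. Between 401 and 500 there were 2 reads in all, both with CF Im68 siRNA.

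**Figure D2:**
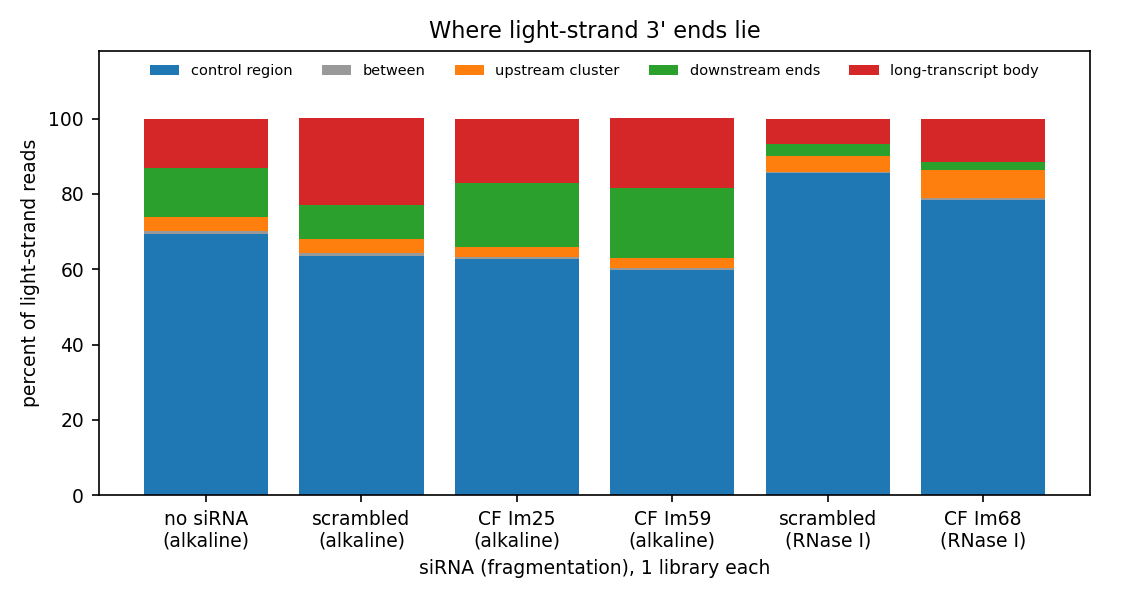
Percent of light-strand reads in the control region (201 to 260), between 261 and 300, in the upstream cluster (up to 400), in the downstream ends (1 to 200) and in the body (above 500), stacked for each of the 6 libraries. The control region takes 59.9% to 69.3% of the alkaline bars and 85.5% and 78.3% of the RNase I bars, where the downstream ends shrink to 2.99% and 2.02%.

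Control-region reads were at 8404 CPM with scrambled siRNA and 6449.7 CPM without siRNA, at 3401 CPM after CF Im25 siRNA and at 4849.9 CPM after CF Im59 siRNA. Both knockdown libraries lay below both controls. The ratio of CF Im25 to scrambled siRNA was 0.405 (95% interval 0.400 to 0.410), past the 2-fold rule of size, and its ratio to no siRNA was 0.527 (0.521 to 0.534), short of it. As a share of all mitochondrial reads of both strands the ratio to scrambled siRNA was 0.718, also short of it. To be called, a difference had to reach 2-fold, with 50 or more reads in either library and an exact interval that leaves out 1. For CF Im59 siRNA the ratios were 0.577 and 0.752, and neither was called. After CF Im68 siRNA the control region was at 63573 CPM against 33566 CPM, a ratio of 1.89 (1.88 to 1.90), which was also short of the rule. As a share of all mitochondrial reads, the CF Im68 ratio of the control region was 0.941. This ratio had little room to rise. The scrambled RNase I library had 179644 control-region reads, beside 30489 other light-strand reads and 12446 heavy-strand reads. By the same measure the ratio of all light-strand ends outside the control region was 1.54, short of the rule, against 3.09 per library total.

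Ends in the control region were spread over many nucleotides rather than at a fixed base. Reads were found at 58 to 60 of the 60 positions in each library. After alkaline hydrolysis the most used position was 221 in all 4 libraries, with 18.7% of control-region reads without siRNA and 18.7% with scrambled siRNA, 13.0% after CF Im25 siRNA and 13.4% after CF Im59 siRNA. After RNase I the most used position was 230, with 14.2% and 16.5%, and position 221 held 5.72% and 4.50%. The middle 80% of control-region reads spanned 24 to 29 nt in the alkaline libraries and 16 and 13 nt in the RNase I libraries.

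Position 231 differed between the alkaline controls and the alkaline knockdowns. It held 5.84% of control-region reads without siRNA and 4.08% with scrambled siRNA, but 12.4% after CF Im25 siRNA and 10.4% after CF Im59 siRNA, so the controls and the knockdowns did not overlap. It was chosen after its values were seen, and it was not the only position without overlap. Position 219 held 8.46% without siRNA and 7.67% with scrambled siRNA, against 4.53% and 6.01% after CF Im25 and CF Im59 siRNA. Position 234 did overlap, with 6.96% and 7.27% against 6.67% and 7.40% in the same order. Many other control-region positions were without overlap too, though their share was not counted. Among them was 221, the most used, with 18.7% and 18.7% against 13.0% and 13.4%. The separation at 231 is therefore not particular to that position. To turn the profile of scrambled siRNA into that of no siRNA, 7.01% of control-region reads would have to move to another position, and 6.55% for CF Im25 against CF Im59 siRNA. Between an alkaline control and an alkaline knockdown this share was 13.9% to 20.7%. Between the RNase I libraries it was 11.7%, and between any alkaline and any RNase I library 35.2% to 41.1%.

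**Figure D3:**
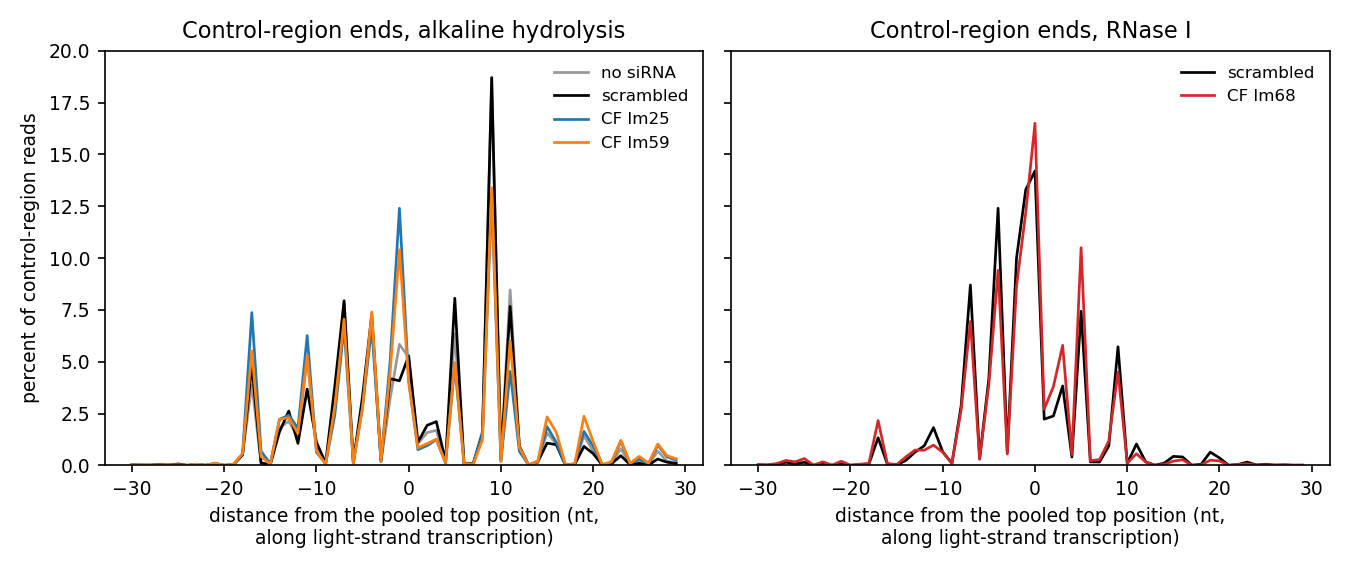
Percent of control-region reads at each nucleotide, by distance from the pooled top position (nt, positive values lie farther along light-strand transcription), for the 4 alkaline libraries (left) and the 2 RNase I libraries (right). The tallest alkaline peak, at position 221, lies 9 nt beyond the pooled top position of 230, and the tallest RNase I peak lies at it.

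A smaller site with its top at 257 runs from 256 to 282 and so reaches past the edge of the control region. Its most used position was 281 in the 4 alkaline libraries and 257 in both RNase I libraries. It was at 16.8 CPM without siRNA, 26.5 with scrambled, 5.91 with CF Im25 and 7.83 with CF Im59 siRNA, and at 147 with scrambled and 565 with CF Im68 siRNA after RNase I. Both alkaline knockdowns were called lower against both controls, with ratios of 0.223 and 0.352 for CF Im25 siRNA and 0.295 and 0.467 for CF Im59 siRNA. After CF Im68 siRNA it was called higher, with a ratio of 3.84 (3.57 to 4.14), above the 1.89 of the main site at 230.

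The promoter-side ends were lower after CF Im25 siRNA and higher after CF Im68 siRNA. The site at 372, which spans 347 to 391, was at 325 CPM without siRNA, 487 with scrambled siRNA, 132 after CF Im25 siRNA and 200.1 after CF Im59 siRNA. CF Im25 siRNA was called lower against both controls, with ratios of 0.270 (0.254 to 0.287) to scrambled and 0.405 (0.382 to 0.429) to no siRNA. CF Im59 siRNA was called lower against scrambled siRNA alone (0.411, and 0.616 against no siRNA). In the RNase I libraries the site rose from 1671 to 6105 CPM after CF Im68 siRNA, a ratio of 3.65 (3.58 to 3.74). The site at 285 took the same directions, with 84.9, 103, 31.5 and 42.1 CPM in the alkaline libraries in the same order, and 103 and 266 CPM after RNase I, and both alkaline knockdowns were called lower against both controls.

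None of the 3 main sites beyond the control region, at 198, 122 and 90, was called in a comparison of siRNAs. The site at 198 is sharp, with 57.1% to 65.1% of its reads at 198 itself in all 6 libraries. It was at 695 CPM without siRNA, 672 with scrambled, 619 with CF Im25 and 1071 with CF Im59 siRNA, and at 531 with scrambled and 405 with CF Im68 siRNA after RNase I. The knockdown libraries thus lay on either side of their controls, and the ratio after CF Im68 siRNA was 0.763 (0.728 to 0.798). This was the lowest ratio of the 154 light-strand sites tested in that comparison and the only one below 1. The site at 122 was at 157, 159.5, 129 and 213 CPM in the alkaline libraries and at 566 and 1103 CPM after RNase I. The site at 90 was at 412, 387, 215 and 309 CPM and at 70.1 and 122 CPM.

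The balance between the parts near the promoter differed between libraries. Upstream ends (above 300, up to 400) numbered 5.17 and 5.93 per 100 control-region reads in the alkaline controls and 3.97 and 4.27 after CF Im25 and CF Im59 siRNA, and they numbered 5.01 with scrambled and 9.66 with CF Im68 siRNA after RNase I. Downstream ends (1 to 200) numbered 18.8 without siRNA and 14.1 with scrambled siRNA, against 27.0 and 31.2 after CF Im25 and CF Im59 siRNA, and 3.5 and 2.58 in the RNase I libraries. These ratios are taken within a library and do not depend on the scaling between libraries. In the alkaline libraries the 2 knockdowns lay outside the range of the 2 controls in both measures. For body ends per 100 control-region reads they lay between them. These numbered 27.4 and 30.7 after CF Im25 and CF Im59 siRNA, against 18.8 without siRNA and 36.4 with scrambled siRNA. The downstream measure depends on the cut at 200. The site at 198, beside that cut, had 6513 reads with scrambled siRNA, where all downstream ends had 11445.

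The body of the long transcript had ends in every 1 kb window from 16000 down to 3001, without a dominant site. Sites were made by joining all ends within 25 nt of a local top position, and 162 light-strand sites had a mean of at least 1 CPM over the 6 libraries, of which 152 lay above position 500. These 162 sites held 99.8% to 99.9% of light-strand reads. The most used body site held 4.17% to 5.79% of the body reads of its library, and 17 to 26 sites were needed to reach 50%. The site just inside the minimum, at 14911, had a mean of 1.16 CPM, and the next, at 5007, had 0.975 CPM.

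Body sites were almost all antisense to genes of the heavy strand. Of the 152 body sites, 145 (95.4%) lay inside a heavy-strand gene in antisense orientation, 3 lay in sense orientation in a light-strand gene and 4 lay too close to a gene border to be assigned. The antisense sites held 97.5% to 98.5% of the body site reads. The share of the body length that lies in heavy-strand genes was not counted, so these percentages have no background beside them. Most lay opposite MT-CYB (27 sites), which encodes cytochrome b, and opposite MT-ND5 (24 sites), MT-CO1 (18), MT-ND4 (16), MT-CO3 (15) and MT-ND1 (15), which encode subunits of respiratory complexes I and IV. These counts by gene were not set against gene length.

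The ends were uneven along the strand. The 1 kb window from 15001 to 16000, among those nearest to the promoter along transcription, held 18.5% to 31.7% of the body reads, the most of 15 windows in each of the 6 libraries. From 501 to 3000, opposite the ribosomal RNA genes and at the far end of the transcript, there were 24 reads in all 6 libraries together. The neighbouring window from 3001 to 4000 held 388 to 7923 reads per library. Ends above 16000, on the stretch transcribed before the window that held the most, numbered 168 in all libraries together.

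**Figure D4:**
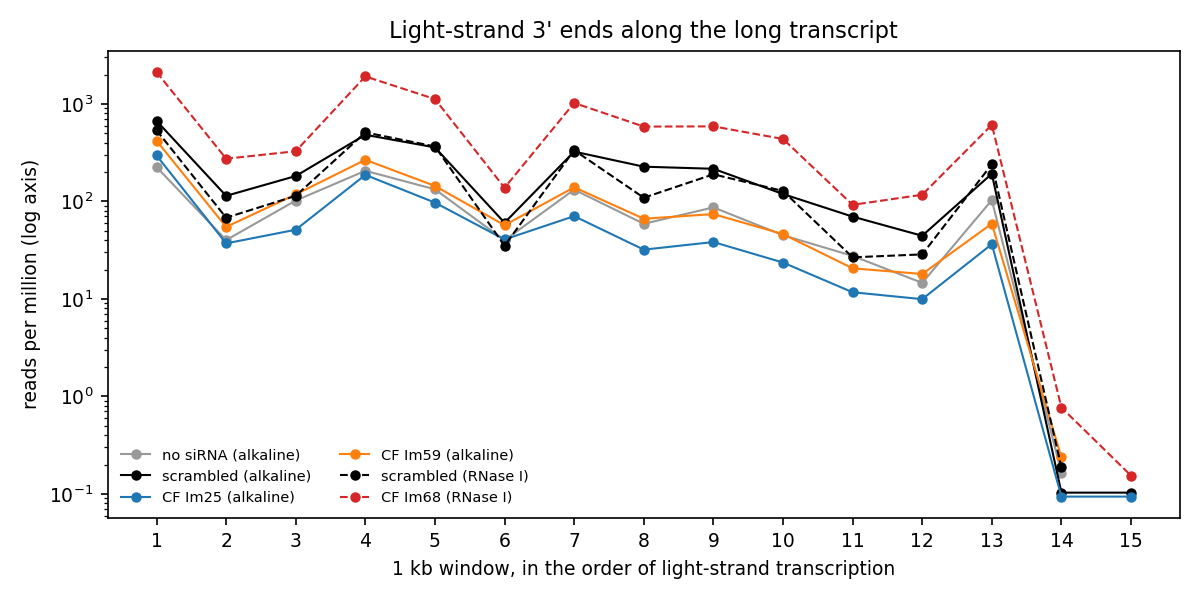
Light-strand CPM (log axis) in 15 windows of 1 kb, ordered along light-strand transcription, for the 6 libraries (windows with 0 reads not drawn). CF Im68 siRNA is highest in each of the first 13 windows, and all libraries drop to under 1 CPM in the last 2.

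After CF Im68 siRNA the body took a higher share of the library in each window that had enough reads. It was at 9354 CPM against 2690.4 CPM with scrambled siRNA, a ratio of 3.48 (3.42 to 3.54), while the heavy strand was at 2554 against 2325 CPM, a ratio of 1.10 (1.08 to 1.12). By site, the heavy strand also rose in part, since 21 of 48 heavy-strand sites tested were called higher and 2 lower, with a median ratio of 1.81. On the light strand all 13 windows with at least 50 reads were at least 2-fold higher, with ratios of 2.54 to 5.36. Of 154 light-strand sites with enough reads, 133 were called higher and 0 lower. Over all sites of the genome the same rule called 22.8% of 20075 higher and 12.1% lower. The median ratio of the light-strand sites was 3.43 (interquartile range 2.45 to 4.85), and that of all sites was 1.09. This comparison rests on a single RNase I control library. Body reads per heavy-strand read were 1.16 with scrambled and 3.66 with CF Im68 siRNA. The call for the whole body was lost as a share of all mitochondrial reads (1.73), most of which were control-region reads in both RNase I libraries. It was also lost when distinct positions were counted in libraries thinned to equal size (1.39). Both alternatives were chosen after seeing the data. The count of distinct positions could not reach 2-fold here. The control alone had reads at 2759 body positions, and all libraries together at 5302 light-strand positions.

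The most used body sites show the size of this difference. The site at 12604, antisense to MT-ND5, was at 90.6 CPM with scrambled and 538 CPM with CF Im68 siRNA, a ratio of 5.94 (5.42 to 6.53). The site at 15235, antisense to MT-CYB, was at 49.7 and 343 CPM, a ratio of 6.90 (6.10 to 7.84). The site at 9244, antisense to MT-CO3, was at 132 and 323 CPM, a ratio of 2.44 (2.25 to 2.65). Also called higher were the sites at 11833 antisense to MT-ND4 (4.39), 15588 antisense to MT-CYB (3.83), 3429 antisense to MT-ND1 (2.24) and 12529 antisense to MT-ND5 (2.02). Summed by gene, the 27 sites antisense to MT-CYB went from 571 to 2276 CPM and the 24 antisense to MT-ND5 from 608 to 2150.4 CPM.

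After CF Im25 siRNA the body was low against scrambled siRNA and less so against no siRNA. The ratio was 0.305 (0.298 to 0.312) to scrambled siRNA and 0.768 (0.750 to 0.786) to no siRNA. As a share of all mitochondrial reads the ratio to scrambled siRNA was 0.541, which was not called. Against scrambled siRNA 92 of 110 light-strand sites were called lower and 1 higher, where the rule called 16.9% of 20719 sites of the genome lower and 19.5% higher. Against no siRNA 30 of 95 were called lower and 1 higher, where it called 16.8% of 25427 lower and 14.5% higher. Their median ratios were 0.264 and 0.641, against 1.02 and 0.962 for all sites. Of 94 sites tested against both controls, 69 lay below both, 23 between them and 2 above both, and 30 were called lower against both. The share of all sites of the genome that lay below both, or were called lower against both, was not counted. The heavy strand was at 5322 CPM, against 5807 and 6159.5 CPM in the controls. By site, 16 of 55 heavy-strand sites were called higher and 2 lower against scrambled siRNA (median ratio 1.21), and 17 of 63 higher and 5 lower against no siRNA (median 1.46).

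After CF Im59 siRNA the body lay between the controls. Its ratio was 0.486 (0.477 to 0.495) to scrambled siRNA and 1.22 (1.2 to 1.25) to no siRNA. As a share of all mitochondrial reads the ratio to scrambled siRNA was 0.599, which was not called. Against scrambled siRNA 68 of 110 light-strand sites were called lower and 1 higher, with 12.6% of 20572 sites of the genome lower and 10.9% higher. Against no siRNA 5 of 96 (5.21%) were called lower and 10 (10.4%) higher, with 9.35% of 24546 lower and 5.63% higher. The 110 sites thus stood far from the background against scrambled siRNA, and the 96 close to it against no siRNA, with medians of 0.438 and 1.14 beside 0.990 and 0.952 for all sites. Of 95 sites tested against both controls, 54 lay between them. Of the 95, 1 was called higher against both controls, at 15887, and 5 were called lower against both, at 257, 285, 3429, 7205 and 3475. Each of the 5 was also called lower against both after CF Im25 siRNA. The same control libraries served both knockdowns, so these calls are not independent. The share of all sites of the genome called against both controls was not counted. The heavy strand was at 7364 CPM, a ratio of 1.27 to scrambled and 1.2 to no siRNA, and 21 of 66 of its sites were called higher and 1 lower against scrambled siRNA.

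The alkaline controls, neither of which had a targeting siRNA, also differed in the body. No siRNA had a ratio of 0.397 (0.390 to 0.404) to scrambled siRNA, and all 13 windows were lower, with ratios of 0.260 to 0.660. Of 111 light-strand sites 77 were called lower and 1 higher, where the rule called 4.96% of 23927 sites of the genome lower and 5.87% higher. The median ratio was 0.382, and that of all sites was 1.0. Of the 77 sites called lower, 76 lay in the body, and among the 10 sites at or below position 500 the median ratio was 0.904. The heavy strand was at 6159.5 CPM without siRNA and at 5807 CPM with scrambled siRNA, a ratio of 1.06.

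**Figure D5:**
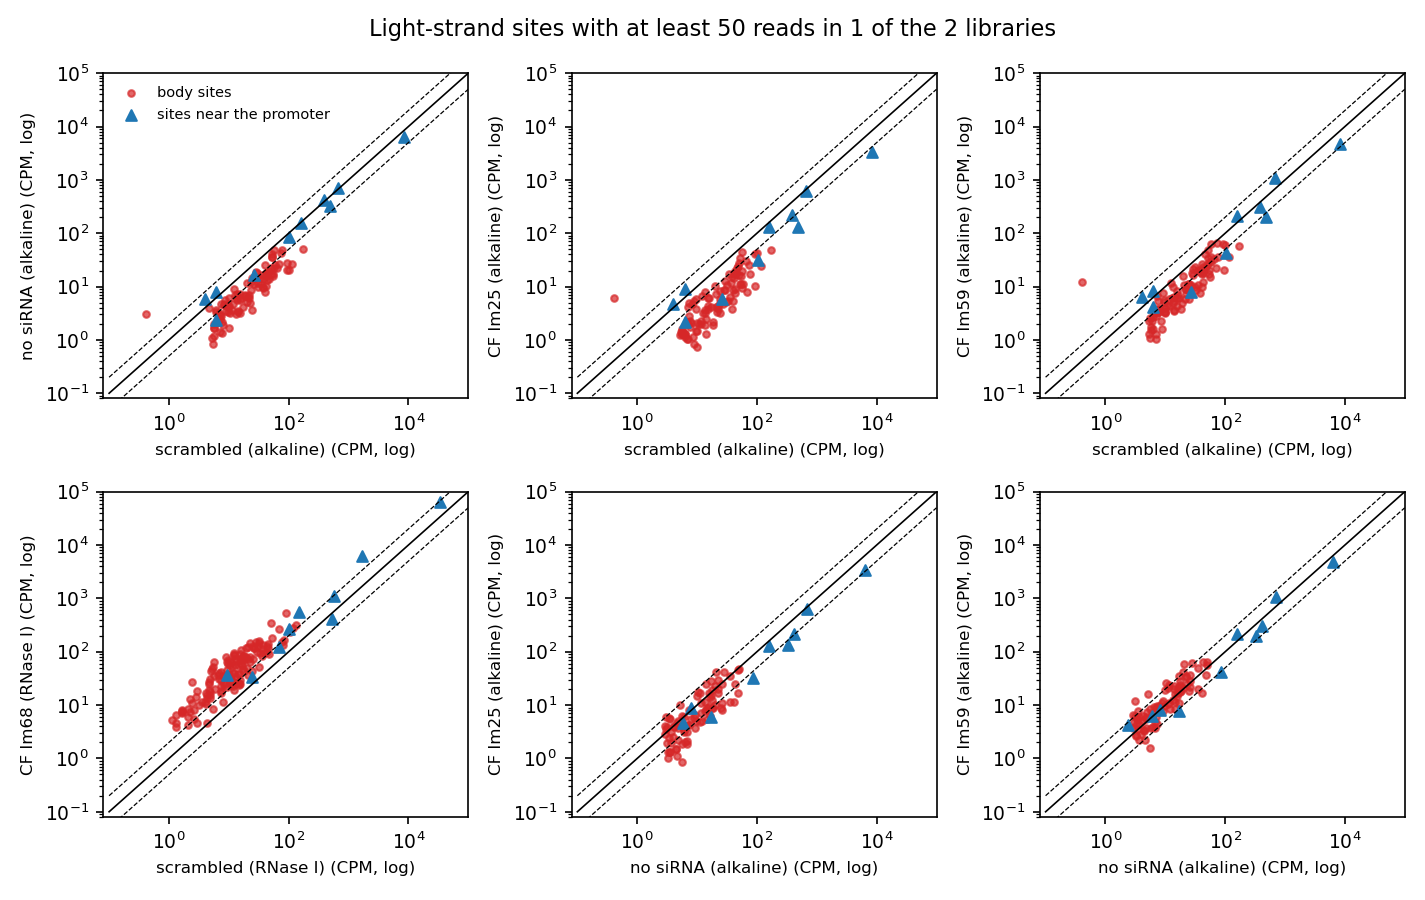
CPM of each light-strand site (log axes) in a library (vertical) and its control (horizontal), for sites that reach 50 reads in either library. Circles are sites above position 500 and triangles those at or below it, the solid line marks equal levels and the dashed lines a 2-fold difference. Most circles sit below the lower dashed line against alkaline scrambled siRNA, and most sit above the upper one after CF Im68 siRNA, where 129 of 145 were called higher.

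Single body sites of the alkaline libraries did not all follow the body total. The site at 11833, antisense to MT-ND4, was at 171 CPM with scrambled siRNA and at 50.1, 47.5 and 56.6 CPM with no, CF Im25 and CF Im59 siRNA. The site at 15235, antisense to MT-CYB, was at 99.7 CPM with scrambled siRNA and at 20.7, 41.8 and 59.2 CPM in the same order, so both knockdowns were called higher against no siRNA (2.02 and 2.87). The site at 3429, antisense to MT-ND1, was at 52.9 and 41.1 CPM in the scrambled and no siRNA libraries and at 11.3 and 16.9 CPM after CF Im25 and CF Im59 siRNA. Here the knockdowns lay below both controls, with ratios of 0.213 and 0.274 for CF Im25 siRNA and of 0.320 and 0.411 for CF Im59 siRNA. The site at 12529, antisense to MT-ND5, was at 56.9, 49.1, 44.8 and 63.2 CPM, and none of its alkaline comparisons was called.

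The stretch in which ND6, the mRNA of the light strand, is encoded had few ends. From 14000 to 14700 there were 314 reads without siRNA, 424 with scrambled, 154 with CF Im25 and 231 with CF Im59 siRNA after alkaline hydrolysis, and 92 with scrambled and 432 with CF Im68 siRNA in the RNase I libraries. Reads per nucleotide were 0.272 to 0.344 times those of the rest of the body in the alkaline libraries, and 0.141 and 0.0780 times in the RNase I libraries. All 6 libraries thus had fewer ends per nucleotide there than over the rest of the body. Per kb it was at 24.6, 62.4, 20.6 and 26.1 CPM with no, scrambled, CF Im25 and CF Im59 siRNA. The 1 kb window from 4001 to 5000 was lower, at 14.6, 44.4, 9.94 and 18.0 CPM. In the RNase I libraries that window was higher, at 28.6 and 117 CPM against 24.5 and 47.4. Low density was thus not particular to the ND6 stretch after alkaline hydrolysis. Only 2 of the 162 sites lay in this stretch, both inside MT-ND6 in sense orientation. Transcription runs towards lower positions, so any end of the ND6 mRNA below 14000 is not in these counts.

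The ND6 sites differed between the fragmentation methods. The site at 14357 was at 16.3 CPM without siRNA, 41.1 with scrambled, 14.3 with CF Im25 and 17.1 with CF Im59 siRNA, but at 2.06 and 8.39 CPM in the RNase I libraries. The site at 14156 was at 0.660, 1.24, 0 and 0.870 CPM in the alkaline libraries, where it had at most 12 reads, and at 14.8 and 23.9 CPM in the RNase I libraries. With 0 reads after CF Im25 siRNA a level of up to 3 reads in the library cannot be told from 0. Between the scrambled siRNA libraries, RNase I against alkaline hydrolysis, the ratios were 0.0500 (0.0248 to 0.0905) at 14357 and 11.9 (6.46 to 24.0) at 14156. The whole ND6 region was at 33.2 against 17.2 CPM after CF Im68 siRNA, a ratio of 1.93 (1.54 to 2.45) that the rule did not call. Its sites differed, since 14357 was called higher (4.08, 2.19 to 8.41) and 14156, with 79 of the 92 control reads, was not (1.62, 1.26 to 2.10). Against alkaline scrambled siRNA the region was called lower after CF Im25 siRNA (0.330), after CF Im59 siRNA (0.418) and without siRNA (0.395), and against no siRNA the ratios of 0.837 and 1.06 were not called.

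Light-strand sites differed between the fragmentation methods in both directions. Between the scrambled siRNA libraries, RNase I against alkaline hydrolysis, 38 of 124 sites were called higher and 40 lower. The rule called 27.3% of 19191 sites of the genome higher and 40.9% lower. The control region was at 33566 against 8404 CPM, a ratio of 3.99 (3.96 to 4.03), and the body at 2690.4 against 3061 CPM, a ratio of 0.879 (0.862 to 0.897). The heavy strand had a ratio of 0.400 (0.393 to 0.408). The site at 122 was 3.55 times as high and that at 90 was 0.181 times as high, although they are neighbours. Values of CF Im68 siRNA and of the alkaline knockdowns are for this reason not set against each other as levels.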

How the data were processed

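The authors deposited 1 file of raw counts per library, which lists stranded positions with the count of read 3′ ends at each. Per the submitters' processing notes the builds are hg19 and GRCh37. Not given in the sources used here were the aligner, filters, duplicate removal and the treatment of reads that also match nuclear copies of mitochondrial DNA.

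Library totals were 5351980 to 18183644 reads. Counts were divided by the library total (CPM). Sites were built from the 6 libraries at equal weight with 25 nt on either side, and kept at a mean of 1 CPM. Ratios have exact (Clopper-Pearson) 95% intervals, which cover counting error only, and PCR copies are not independent molecules. The calls were tested on simulated data. The simulation held counting error alone, so it cannot show how the calls fare under a spread between libraries or with PCR copies. Python 3.11.15, numpy 2.4.6 and scipy 1.17.1 were used.

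Sites named are the control-region sites, the 12 highest others and those of the ND6 region, and further ones said to be chosen on their values, extremes or calls. Members, lists and rules were chosen with earlier results of these data known; the cuts at 200, 300, 400 and 500 were set after the light-strand profile was seen. Alternatives were other scalings, windows, minimum reads, controls and thinning.

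Gene names are from GENCODE on GRCh38, whose chrM numbering differs: above 3300, 1.88% of light-strand ends fell on an A with the annotation shifted by 1 nt, and 28.5% without a shift. Heavy-strand ends gave no such clear minimum (19.6% and 27.4%, with 10.1% at 2 nt). Names were given only at least 5 nt inside a gene, no coordinate was converted, and no sequence of the files' build was used here.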

Additional observations from a re-analysis of the deposited data

Results flagged for a closer look

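Light-strand levels lay below scrambled siRNA after CF Im25 and CF Im59 siRNA and above it after CF Im68 siRNA, a difference that was not tested, since each group had 1 library and the fragmentation differed as well. Outside the control region the ratio to scrambled siRNA was 0.416 after CF Im25, 0.670 after CF Im59 and 3.09 after CF Im68 siRNA. That measure includes positions 1 to 200, where the ratios were 0.779, 1.28 and 1.40, so CF Im59 siRNA lay above scrambled siRNA there. In the control region the ratio was 0.405, 0.577 and 1.89 in the same order. Above position 500 it was 0.305, 0.486 and 3.48. The alkaline control without siRNA also lay below scrambled siRNA there, with a ratio of 0.397. Against no siRNA the directions did not all hold: the ratios after CF Im25 and CF Im59 siRNA were 0.709 and 1.14 outside the control region, 0.527 and 0.752 in it, and 0.768 and 1.22 above position 500, none of them called. CF Im59 siRNA thus lay above that control in 2 of the 3 measures. The share of the control library in these differences was not tested.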

How the results depend on the processing

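Of the alternative values, 63 stayed within the reported value's counting interval (for counts of sites, within 1.5-fold), 74 moved beyond it and 6 turned a difference past the size rule, or a share difference whose interval left out 0, to the other sign; the cause was not tested. Ratios crossed 1 in 6 cases, of which 5 had not been called and count as moved. No paired analysis was possible because each group had 1 library. Ratios below are in the order CF Im25, CF Im59 and no siRNA to scrambled siRNA (alkaline), CF Im68 to scrambled siRNA (RNase I), and RNase I to alkaline scrambled siRNA. Outside the control region they were 0.416, 0.670, 0.587, 3.09 and 1.17 as reported. As a share of all chrM reads they were 0.739, 0.826, 0.724, 1.54 and 0.538. Counted as distinct positions after thinning to the smallest library, the first 4 were 0.581, 0.721, 0.708 and 1.37. The 1.37 could not have reached 2-fold, since its control had reads at 2934 of the 5242 positions found outside the control region. The same limit holds for the 1.39 given below for positions above 500. Without the top position at 198 the ratios outside the control region were 0.373, 0.581, 0.547, 3.24 and 1.22. Above position 500 alone, chosen after seeing the data like its alternatives, they were 0.305, 0.486, 0.397, 3.48 and 0.879, as a share of chrM reads 0.541, 0.599, 0.490, 1.73 and 0.403, as distinct positions 0.558, 0.706, 0.692, 1.39 and 1.17, and against no siRNA 0.768 and 1.22 for CF Im25 and CF Im59 siRNA. For all ends outside the control region, scaled to nuclear reads, the last 2 ratios were 3.24 and 1.2. Against no siRNA, CF Im25 and CF Im59 siRNA gave 0.709 and 1.14 outside the control region. In the control region the ratios were 0.405, 0.577, 0.767, 1.89 and 3.99 as reported. As a share of all chrM reads they were 0.718, 0.711, 0.947, 0.941 and 1.83. The 0.941 had little room to rise, since control-region reads were most of the chrM reads in both RNase I libraries. As distinct positions after thinning, where nearly all positions hold reads, the ratios were 0.983, 1.0, 1.0, 1.0 and 1.03. Without the top position at 230 the first 2 were 0.410 and 0.585 and the last 2 were 1.84 and 3.62. Scaled to nuclear reads the last 2 were 1.98 and 4.09. Against no siRNA, CF Im25 and CF Im59 siRNA gave 0.527 and 0.752. The control-region share of light-strand reads differed by -0.652, -3.52, 5.98, -7.19 and 22.1 points as reported. With bounds widened by 50 nt it was 4.76, 3.52, 8.16, -7.83 and 18.2 points, so the sign for CF Im25 and CF Im59 siRNA turned. As distinct positions it was 1.5, 0.841, 0.898, -0.531 and -0.243 points. Against no siRNA it was -6.63 and -9.50 points. Sites called lower against no siRNA were 30 after CF Im25 siRNA (92 against scrambled) and 5 after CF Im59 siRNA (68), and sites called higher after CF Im59 siRNA were 10 (1). Thinned, the lower sites after CF Im59 siRNA were 45, and the single higher site after CF Im25 siRNA and in no siRNA became 0. With 10 nt on either side, the higher sites after CF Im68 siRNA were 240 (133), those after CF Im59 siRNA 2, and the lower sites for RNase I against alkaline hydrolysis 61 (40). The share of the main site's reads at position 230 then rose from 5.28%, 5.32%, 4.16%, 4.08%, 14.2% and 16.6% to 7.65%, 7.38%, 6.4%, 6.32%, 15.6% and 18.0% (no, scrambled, CF Im25 and CF Im59 siRNA, then RNase I scrambled and CF Im68 siRNA).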

Other observations

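A few light-strand sites, chosen after their values were seen, departed from the rest. The site at 15992 lies in sense orientation in MT-TP, the gene of the proline tRNA. It had 0 reads without siRNA, 6 with scrambled, 2 with CF Im25 and 0 with CF Im59 siRNA after alkaline hydrolysis. After RNase I it had 30 reads (5.61 CPM) with scrambled and 841 reads (64.7 CPM) with CF Im68 siRNA, and this ratio of 11.5 (8.03 to 17.2) was the highest of the light-strand sites tested after CF Im68 siRNA.

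The site at 15887, too near a gene border to be assigned, was the only light-strand site called higher when the 3 other alkaline libraries were compared with alkaline scrambled siRNA, and it was so in each. With the libraries thinned to equal size no site was called higher after CF Im25 siRNA or without siRNA, so that 2 of these 3 calls were lost. It had 4 reads (0.413 CPM) there, against 56 (3.08 CPM) without siRNA, 65 (6.10 CPM) with CF Im25 and 151 (11.9 CPM) with CF Im59 siRNA, ratios of 7.46 (2.76 to 28.3), 14.8 (5.50 to 55.8) and 28.9 (11.1 to 108). With 4 and 18 reads in the RNase I libraries it was at 0.747 and 1.38 CPM.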
